A study of Mus musculus with 18 samples.

Results

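The 37 genes of the mouse mitochondrial genome were taken from the nascent RNA libraries by 1 rule, their place on the mitochondrial chromosome in the gene annotation, out of 54446 genes counted. They are 13 protein genes, 2 ribosomal RNA (rRNA) genes and 22 transfer RNA (tRNA) genes. The annotation puts 28 of them on the plus strand (12 protein genes, both rRNAs and 14 tRNAs) and 9 on the minus strand (*mt-Nd6* and 8 tRNAs).

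The libraries came from mouse embryonic stem (mES) cells, either wild type (WT) or with both copies of *Tet2* knocked out (*Tet2*-KO, given as Tet2-/- by the submitters), grown with serum, LIF and inhibitors of GSK3 and MEK after removal of feeder cells. *Tet2* encodes a dioxygenase that oxidizes 5-methylcytosine. All cells received 1 mM 5-ethynyl uridine (EU), a uridine analogue that is built into new RNA and allows it to be captured, for 10, 20 or 40 min, with 3 replicate dishes for each genotype and time, 18 libraries in all. Whether each genotype was a single clone is not given in the sources used here, so a p-value covers the spread between dishes and not between independently made lines. ERCC RNA, a mix of synthetic transcripts, was added to the captured RNA in proportion to the total RNA of each sample, and rRNA was depleted by the submitters' protocol, so levels of the 2 mitochondrial rRNAs are what that step left.

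Reads counted on genes numbered 17931614 to 23069143 a library and ERCC reads 44162 to 512186. Mitochondrial genes took 341243 to 518397 reads a library, 1.78 to 2.33% of the reads on genes. Of 8 stem cell markers, 7 had more than 3 reads in every library, and *Sox2* had 3 or fewer in all of them. Of 2213 genes lying inside a well-read gene of the same strand, 1 had any read, a result of the counting described below. Whether *Sox2* is such a gene was not examined, so its count does not show that it was not transcribed. The summed markers stood at 2872 to 3053 RPM (a gene's reads per 1000000 reads on genes) in WT and 2093 to 2210 in *Tet2*-KO cells, while the 7 feeder fibroblast markers summed to at most 22.9 and the 4 primitive endoderm markers to at most 13.5. The part of these marker differences in the results below was not tested. *Tet2* itself had 13117 to 17092 reads in the WT libraries and 9730 to 13011 in the *Tet2*-KO libraries, ranges not corrected for depth that did not overlap. Averaged over the EU times, its share was lower in *Tet2*-KO cells by a log2 fold change of -0.20 ± 0.01 (SE; edgeR adjusted p = 1.4e-16). Per ERCC read it was higher in *Tet2*-KO cells, by 0.54 ± 0.05 (2.4e-24). Reads over the whole gene were not lost, and the knockout itself rests on the labels. No replicate pair was close enough to be 1 library deposited in duplicate, the mean chi-square per gene of a pair being 1.66 or more.

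Mitochondrial DNA is read by its own RNA polymerase, POLRMT, with the factors TFAM and TFB2M, from promoters in the control region. Each strand gives a long precursor that covers many genes, and the tRNAs that lie between the other genes are cut out at both ends to free the rRNAs and messenger RNAs. One strand holds the rRNAs and nearly all of the protein genes, and the other, apart from *mt-Nd6* and a few tRNAs, gives RNA that is antisense to genes and is mostly short-lived.

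EU can enter RNA only at uridine, so the start of the most read protein gene of each strand, and the 3 tRNA genes with the most reads, are printed with every T, a uridine in the RNA, in capitals. They are from GENCODE transcripts on GRCm38 (mm10) and run 5′ to 3′ along the gene's own strand. The first 60 bases are given of *mt-Nd6* (chrM:14011-14070, minus strand) and of its neighbour on the other strand *mt-Nd5* (chrM:11742-11801, plus strand), both exonic, and all 67 bases of *mt-Ty* (chrM:5260-5326, minus), *mt-Tp* (chrM:15356-15422, minus) and *mt-Tw* (chrM:4950-5016, plus).
mt-Nd6: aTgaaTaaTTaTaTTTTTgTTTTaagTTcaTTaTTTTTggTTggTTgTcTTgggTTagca
mt-Nd5: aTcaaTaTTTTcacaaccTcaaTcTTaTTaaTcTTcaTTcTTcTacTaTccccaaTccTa
mt-Ty: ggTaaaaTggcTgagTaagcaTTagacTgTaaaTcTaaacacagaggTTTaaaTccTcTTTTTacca
mt-Tp: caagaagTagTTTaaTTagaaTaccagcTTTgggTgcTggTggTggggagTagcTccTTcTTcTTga
mt-Tw: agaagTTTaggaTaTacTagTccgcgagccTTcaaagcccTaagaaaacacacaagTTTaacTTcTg
Of these first 60 bases, 32 were T in *mt-Nd6* and 24 in *mt-Nd5*. Over the whole gene T made up 43.7% of *mt-Nd6*, against 27.4 to 32.8% of the 12 plus-strand protein genes and 26.4% of each rRNA. The part of the uridine content in the levels below was not tested.

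A second set of sequences bears on which members had reads that could be placed at a single site. A stretch of 4653 bases of the mitochondrial genome (chrM:6390-11042) has a near-identical copy on chromosome 1 (chr1:24611535-24616197), in which 7 pseudogenes are annotated, each at least 99.71% identical to the part it matches. Only reads placed at a single site were counted, 5.24 to 5.99% of a library's reads being set aside as placed at several. The 80-base windows printed, all on GRCm38, are from *mt-Co2* (chrM:7013-7092, plus) and its copy *Gm28661* (chr1:24615486-24615565, minus), from *mt-Nd3* (chrM:9459-9538, plus) and *Gm28438* (chr1:24613040-24613119, minus), and from *mt-Nd6* (chrM:13737-13816, minus) and its more distant copy *Gm11408* (chr4:80003581-80003660, minus), with bases that differ within a pair in capitals.
mt-Co2: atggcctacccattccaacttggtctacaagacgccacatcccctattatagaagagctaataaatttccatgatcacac
Gm28661: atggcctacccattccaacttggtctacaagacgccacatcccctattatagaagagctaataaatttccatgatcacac
mt-Nd3: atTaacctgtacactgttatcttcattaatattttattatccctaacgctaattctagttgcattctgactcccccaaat
Gm28438: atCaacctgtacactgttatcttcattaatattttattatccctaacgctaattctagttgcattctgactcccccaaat
mt-Nd6: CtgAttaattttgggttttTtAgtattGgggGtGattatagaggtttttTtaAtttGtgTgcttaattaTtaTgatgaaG
Gm11408: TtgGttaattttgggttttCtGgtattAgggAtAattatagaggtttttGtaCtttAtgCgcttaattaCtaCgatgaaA
The first pair differed at 0 of 80 bases, the second at 1 and the third at 14. Of the members, 11 lie wholly inside the copied stretch (*mt-Co2*, *mt-Atp8*, *mt-Atp6*, *mt-Co3*, *mt-Nd3*, *mt-Nd4l* and 5 tRNAs), and *mt-Co1* and *mt-Nd4* lie partly inside it. Together the 11 held 0.136 to 0.217% of the mitochondrial reads, and how many of their reads were set aside as placed at several sites was not measured, so their values are of the reads placed and not levels of their RNA.

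Nearly all of the mitochondrial reads fell on 8 genes. *mt-Rnr2*, *mt-Nd5*, *mt-Nd6*, *mt-Co1*, *mt-Rnr1*, *mt-Nd1*, *mt-Cytb* and *mt-Nd2* together held 95.4 to 96.7% of them in every library. The comparisons between libraries below were made on the 23 members that passed a filter on low counts, which were both rRNAs, all 13 protein genes and 8 tRNAs, 4 on each strand. Of the other 14, all tRNAs, 7 had no read in any of the 18 libraries, which allows each up to 3 counted reads, 6 had 2 to 37 reads over all libraries, and *mt-Te* had 107. The 7 without a read had less than 50 free bases of their strand on both sides or lay inside the copied stretch. Their count of 0 therefore does not bound their RNA.

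Per kilobase of gene, *mt-Nd6*, a subunit of respiratory complex I and the 1 protein gene of the minus strand, stood highest. Its level, as the mean of the 6 group means, was 840.2 reads per kb per 1000 ERCC reads. The rRNAs *mt-Rnr1* and *mt-Rnr2*, of the small and the large ribosomal subunit, followed at 461 and 452, and *mt-Nd5*, another complex I subunit, at 384. *mt-Nd6* stood above *mt-Rnr1*, the next in order, in 18 of 18 libraries. It has no other gene of its strand for 6613 bases on 1 side. A read running from *mt-Nd6* into that stretch counts for *mt-Nd6*. *mt-Nd5* has 579 such free bases on 1 side, while both rRNAs have neighbours of their strand within 1 base on both sides. The part of this room in the order was not tested. *mt-Rnr1* stood above *mt-Rnr2* in 7 of 18, and their order went with EU time. Per kilobase *mt-Rnr1* was 82.0 to 86.5% of *mt-Rnr2* in the WT libraries at 10 min and 79.8 to 91.7% in *Tet2*-KO. At 40 min it was 107 to 114% in WT and 108 to 109% in *Tet2*-KO.

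The rest of the plus-strand protein genes outside the copied stretch lay between *mt-Nd5* and *mt-Nd4*. *mt-Nd1* was at 339 reads per kb per 1000 ERCC reads, *mt-Co1*, the catalytic subunit of cytochrome c oxidase, at 286, *mt-Cytb*, the mitochondrially encoded subunit of complex III, at 258, *mt-Nd2* at 174 and *mt-Nd4* at 92.5. *mt-Co1* and *mt-Cytb* kept this order in 14 of 18 libraries and the other neighbours among these genes in all 18. With only the length of 100-base windows not shared with an annotated nuclear transcript, *mt-Co1* came to 402 and *mt-Nd4* to 212, and *mt-Nd6* was still 2.09 times the next protein gene, against 2.19 times over the whole length. The 6 protein genes inside the copied stretch ran from 4.43 for *mt-Nd4l* to 0.310 for *mt-Atp8*, a subunit of the ATP synthase and the lowest protein gene, which had 0 to 22 reads a library.

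**Figure D1:**
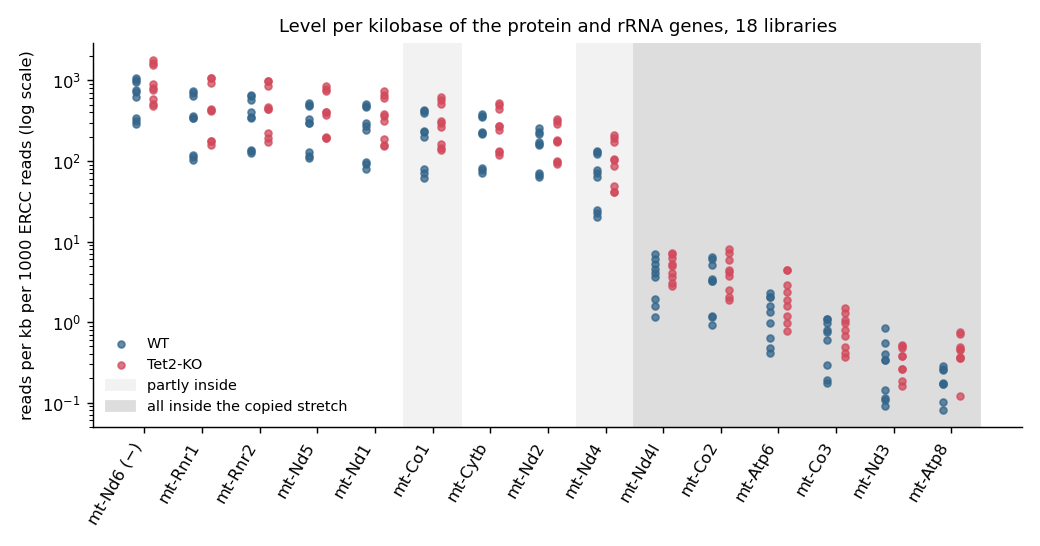
Reads per kilobase of gene per 1000 ERCC reads on a log axis for the 15 protein and rRNA genes, with 1 point for each of 18 libraries (1 library with 0 reads of *mt-Atp8* is not drawn), WT in blue and *Tet2*-KO in red. Grey bands mark genes wholly or partly inside the stretch copied on chromosome 1, and (−) marks the minus strand; the 6 wholly inside stand below all others.

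The tRNA counts differed with the room beside the gene, with exceptions. Over all genes, 1 of 2213 genes lying inside a well-read gene of the same strand had any read, against 84.7% of 1969 lying inside one on the opposite strand, which shows that strands were counted apart and that a read touching a pair of genes of 1 strand was counted for neither. The 10 tRNAs with less than 50 free bases on both sides had at most 37 reads over all libraries, and 6 of them had none. The 9 with 50 or more free bases on 1 side had a median of 181 reads, and the 3 with room on both sides a median of 902. *mt-Ts1* had 28 reads with room on both sides and *mt-Td* 0 with room on 1 side, both inside the copied stretch. *mt-Tf*, outside that stretch, had 5 reads with room on 1 side, which was taken as free because the map begins there. The tRNA with the most reads, *mt-Ty* for tyrosine (23076 in all), has no other gene of its strand for 1543 bases on 1 side, opposite *mt-Co1*, and a read that runs from the tRNA into that stretch counts for the tRNA.

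Summed over the 37 genes, mitochondrial RNA per ERCC read rose with EU time in both genotypes and was higher in *Tet2*-KO cells, while its share of all gene reads was lower in *Tet2*-KO cells at every time. The sum was 1.08, 1.17 and 0.997 reads per ERCC read in the 3 WT libraries at 10 min and 1.81, 1.71 and 1.91 in the *Tet2*-KO libraries. At 20 min it was 2.92, 3.13 and 2.89 in WT and 3.47, 3.83 and 3.82 in *Tet2*-KO cells, and at 40 min 4.99, 5.31 and 4.86 against 8.02, 6.85 and 7.55. The genotypes did not overlap at any time. The ratio of the means, *Tet2*-KO over WT, was 1.67 at 10 min, 1.25 at 20 min and 1.48 at 40 min, beside 2.06, 1.41 and 1.62 for the summed nuclear protein-coding genes in the same libraries, so the mitochondrial sum rose by less than the nuclear sum at each time.

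The share turned this around. Mitochondrial reads were 2.32 ± 0.0141% (SD, n = 3) of gene reads in WT and 1.90 ± 0.0130% in *Tet2*-KO cells at 10 min, 2.02 ± 0.0363% and 1.80 ± 0.0196% at 20 min, and 2.05 ± 0.0106% and 1.88 ± 0.0190% at 40 min. No *Tet2*-KO library reached the lowest WT library of its time, and the ratio of the means was 0.818, 0.890 and 0.920. These are bulk libraries, in which a change in RNA per cell and a change in which cells are present cannot be told apart.

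The minus-strand and tRNA sums each rested largely on 1 gene: *mt-Nd6* held 96.9% of the minus-strand reads and *mt-Ty* 64.8% of the tRNA reads. The minus-strand genes were 0.354 ± 0.00105% of gene reads in WT and 0.297 ± 0.0240% in *Tet2*-KO cells at 10 min, but 0.222 ± 0.00598% and 0.224 ± 0.00285% at 40 min, where the libraries overlapped. The plus-strand genes stood lower in *Tet2*-KO libraries at all 3 times, with ratios of 0.814, 0.897 and 0.909. The tRNAs went from 0.00912 ± 0.000942% in WT and 0.0114 ± 0.00204% in *Tet2*-KO cells at 10 min, overlapping, to 0.0111 ± 0.000609% and 0.00764 ± 0.000668% at 40 min, not overlapping. Of the 8 tested tRNAs, only *mt-Ty* had libraries apart at 40 min. Those of *mt-Ti*, *mt-Tq*, *mt-Tm*, *mt-Tw*, *mt-Ta*, *mt-Tt* and *mt-Tp* overlapped. Their ratios of the means lay on both sides of equal, such as 1.55 for *mt-Ti*, 1.08 for *mt-Tp* and 0.88 for *mt-Tw*.

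**Figure D2:**
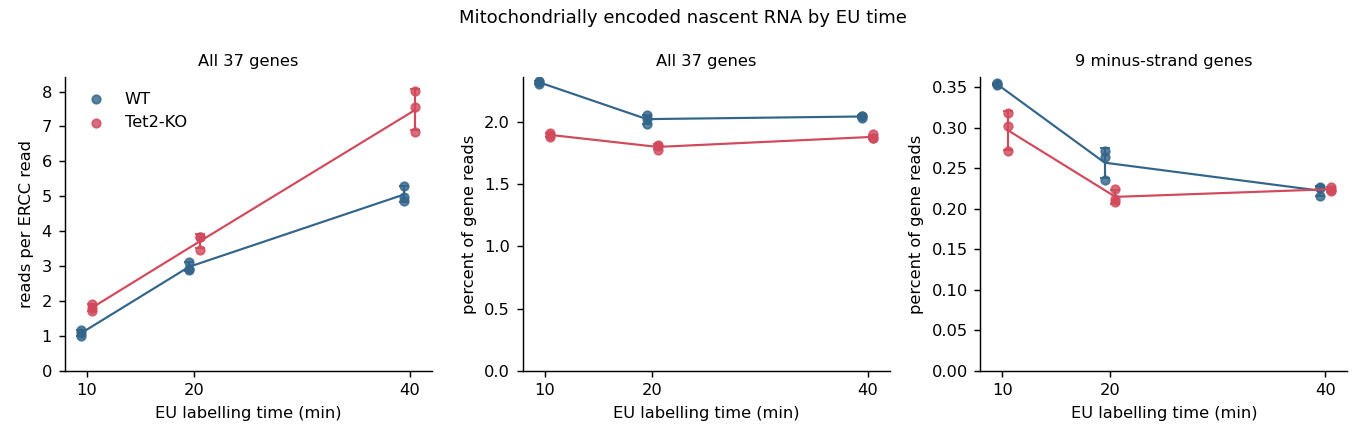
Summed reads of all 37 mitochondrial genes per ERCC read (left), as a percent of gene reads (middle), and of the 9 minus-strand genes as a percent of gene reads (right), against EU time in min, with points for libraries, lines through the means and bars of 1 SD (n = 3). *Tet2*-KO libraries (red) lie above WT (blue) on the left and below in the middle at each time, and on the right the genotypes meet at 40 min.

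The study took the slope of RNA level on EU time as the rate of transcription. A straight line with an intercept gave the mitochondrial sum a slope of 0.128 ± 0.00893 reads per ERCC read per min (SE, 9 libraries) in WT and 0.189 ± 0.00899 in *Tet2*-KO cells, a ratio of 1.47, beside 1.56 for nuclear protein-coding genes. The ratio depended on which times entered: it was 1.00 over 10 and 20 min and 1.81 over 20 and 40 min, so 1 slope did not describe both intervals. For single genes the slope was 1.73 times as large in *Tet2*-KO as in WT for *mt-Nd6*, 1.64 times for *mt-Nd5*, 1.56 times for *mt-Rnr2*, 1.51 times for *mt-Rnr1* and 1.25 times for *mt-Co1*. For *mt-Ty* it was smaller in *Tet2*-KO cells, 0.424 ± 0.0580 reads per 1000 ERCC reads per min against 0.590 ± 0.0548 in WT.

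Between genotypes, most members were called higher in *Tet2*-KO cells per ERCC read, as were most genes of any kind. Averaged over the EU times, edgeR called 21 of 23 members higher at an adjusted p under 0.05, beside 80.5% of all 19910 genes tested, with a median log2 fold change of 0.57 over the members and 0.70 over all genes; with TMM scaling in place of ERCC reads, 1 member was higher and 10 lower. At 10 min 18 members were called higher (79.0% of all genes), at 20 min 13 (53.7%) and at 40 min 15 (68.2%). With ERCC reads the share called among the members was thus near that among all genes. The share of all genes called with TMM scaling was not worked out, so the TMM counts here and below lack that comparison.

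As a share of gene reads, more members were called lower than higher. Averaged over the EU times, 12 of 23 were lower in *Tet2*-KO cells, beside 32.0% of all genes, and 1 was higher, beside 24.6%, with a median log2 fold change of -0.17 over the members and -0.04 over all genes. At 10 min 7 were lower (27.1% of all genes) and 2 higher (17.9%), at 20 min 7 were lower (20.7%) and at 40 min 9 (19.6%). The 12 were both rRNAs, *mt-Nd1*, *mt-Nd2*, *mt-Nd4*, *mt-Nd4l*, *mt-Nd5*, *mt-Nd6*, *mt-Cytb*, *mt-Co1*, *mt-Co2* and *mt-Ty*, and the 1 higher was *mt-Tp*, the tRNA for proline. With DESeq2 the averaged calls for *mt-Ty* (adjusted p = 0.11) and *mt-Co1* (0.20) were lost, the latter also with TMM scaling (0.078). In all, 9 members were lower with DESeq2 and 10 with TMM scaling, so further calls among the 12 were lost with each. The calls for *mt-Nd1*, *mt-Nd4*, *mt-Nd4l* and *mt-Co2* were not followed singly under these alternatives.

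**Figure D3:**
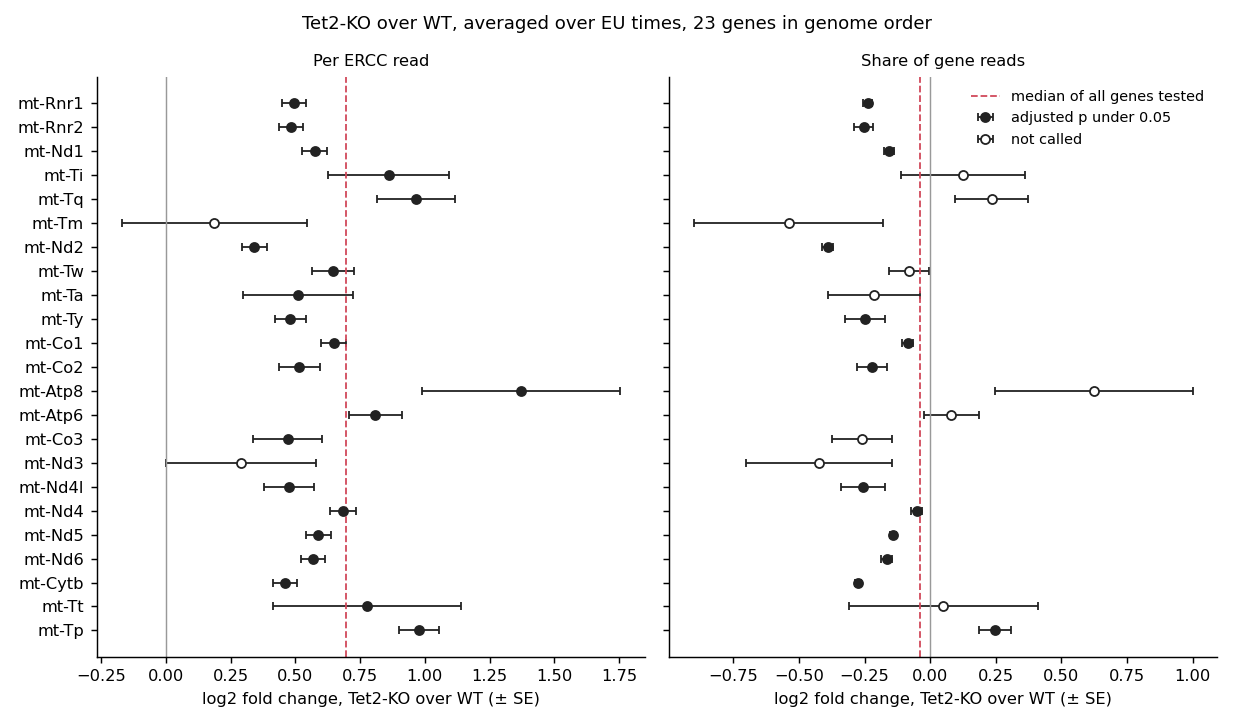
Log2 fold change of *Tet2*-KO over WT averaged over the EU times, with its SE, for the 23 tested members in genome order, per ERCC read (left) and as a share of gene reads (right), filled where the edgeR adjusted p is under 0.05. The red dashed line is the median of all 19910 genes tested; on the left 17 members lie below it and 6 above, up to *mt-Atp8* at 1.37, and all lie above 0 (with TMM scaling 10 were called lower), and on the right 12 filled points lie below 0.

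The rRNAs were among the called members with the largest differences of share at 10 min. *mt-Rnr1* took 2270.3, 2253 and 2321 RPM in WT and 1787, 1676 and 1658 in *Tet2*-KO cells at 10 min, 2233, 2209 and 2307 against 2061, 1888 and 2013 at 20 min, and 2737, 2707 and 2536 against 2397, 2402 and 2559 at 40 min. The genotypes overlapped only at 40 min. The log2 fold change of the share was -0.42 ± 0.03 (SE) at 10 min (edgeR adjusted p = 6.5e-14), -0.18 at 20 min (5.4e-06) and -0.12 at 40 min (0.0014).

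*mt-Rnr2* took 4481, 4312 and 4687 RPM in WT and 3710.1, 3029 and 3056 in *Tet2*-KO cells at 10 min, 3786, 3559.7 and 4633 against 3627, 3221 and 3529 at 20 min, and 4249, 3941 and 3774 against 3662, 3685 and 3891 at 40 min. Its share was lower at 10 min, with a log2 fold change of -0.46 ± 0.06 (SE; edgeR adjusted p = 2.4e-07), and at 40 min the difference of -0.09 did not pass (0.28). At 20 min the WT replicate at 4633 stood apart from the other 2, and the call at -0.21 (0.0083) was lost without it, at -0.09 (0.23), and also without *Tet2*-KO replicate 2 of that time, at -0.16 (0.071), and with DESeq2, at -0.18 (0.14). The genotypes were apart at 10 min and overlapped at 20 and 40 min.

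*mt-Nd6* lost share in *Tet2*-KO cells at the shorter labelling times. It took 3475, 3451 and 3467 RPM in WT and 2633, 2915 and 3070.0 in *Tet2*-KO cells at 10 min, 2609, 2539 and 2284 against 2051, 2155 and 2002 at 20 min, and 2056, 2145 and 2168 against 2158, 2208 and 2157 at 40 min. The groups were apart at 10 and 20 min and overlapped at 40 min. The log2 fold changes were -0.27 ± 0.04 (SE; edgeR adjusted p = 2e-07), -0.26 ± 0.04 (5.2e-07) and 0.03 ± 0.04 (0.50).

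*mt-Nd5*, which lies opposite the end of *mt-Nd6*, is the plus-strand protein gene with the highest level per kilobase of whole gene, with *mt-Co1* above it over the unshared positions. It took 4555, 4647 and 4608 RPM in WT and 3628, 3870.4 and 3615 in *Tet2*-KO cells at 10 min, 3703, 3872 and 3812 against 3552, 3472 and 3554 at 20 min, and 3575, 3652 and 3742 against 3621, 3700.0 and 3582 at 40 min. The groups were apart at 10 and 20 min and overlapped at 40 min. Its share differed by -0.31 ± 0.02 on the log2 scale (SE) at 10 min (edgeR adjusted p = 9e-15), by -0.11 at 20 min (5.8e-05) and by -0.01 at 40 min (0.78).

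*mt-Nd2*, an early plus-strand gene for a complex I subunit and chosen after its values were seen, differed most among the well-read genes. It took 1506, 1464 and 1551 RPM in WT and 1093, 1077 and 989 in *Tet2*-KO cells at 10 min, 1144, 1128 and 1195 against 949, 830.5 and 904 at 20 min, and 989, 1016 and 938 against 797, 807 and 810.4 at 40 min. The genotypes were apart at every time. Averaged over the times its share differed by -0.39 ± 0.02 (SE; edgeR adjusted p = 7.4e-18), beside -0.27 ± 0.01 for *mt-Cytb* (9.6e-20) and -0.16 ± 0.02 for *mt-Nd1* (7.5e-09).

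*mt-Co1*, also chosen after its values were seen, was called lower on the share at 40 min and passed at neither earlier time. It took 2369.8, 2392 and 2231 RPM in WT and 2211, 2529 and 2492 in *Tet2*-KO cells at 10 min, 2443, 2322 and 2169 against 2136, 2256 and 2191 at 20 min, and 2512, 2569.8 and 2686 against 2218, 2164 and 2245 at 40 min. Only the 40 min libraries were apart, with a log2 fold change of the share of -0.23 ± 0.04 (SE; edgeR adjusted p = 2.9e-06), against 0.05 ± 0.04 at 10 min (0.29).

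The 6 protein genes inside the copied stretch had few reads. Averaged over the times, the share of *mt-Co2* differed by -0.22 ± 0.06 (SE; edgeR adjusted p = 0.0014) and that of *mt-Nd4l* by -0.26 ± 0.09 (0.011), while *mt-Co3*, *mt-Atp6*, *mt-Nd3* and *mt-Atp8* did not pass. *mt-Atp8*, the tested member with the highest averaged log2 fold change of the share (0.62 ± 0.38, 0.16), had 17, 9 and 18 reads in WT and 22, 5 and 14 in *Tet2*-KO cells at 10 min, 7, 2 and 9 against 10, 13 and 7 at 20 min, and 5, 0 and 3 against 4, 4 and 7 at 40 min. At this depth a difference of that size was not detectable.

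Of the tRNA genes, *mt-Ty* and *mt-Tp* of the minus strand had the most reads there and *mt-Tw* and *mt-Ti*, for tryptophan and isoleucine, the most on the plus strand. *mt-Ty* took 55.2, 61.5 and 43.7 RPM in WT and 50.2, 71.7 and 82.1 in *Tet2*-KO cells at 10 min, 81.2, 75.9 and 53.3 against 48.4, 61.6 and 58.5 at 20 min, and 83.1, 88.8 and 77.9 against 43.7, 46.0 and 56.9 at 40 min. The groups overlapped at 10 and 20 min and were apart at 40 min, with *Tet2*-KO cells lower by a log2 fold change of -0.77 ± 0.13 (SE; edgeR adjusted p = 1.5e-05). The higher value in *Tet2*-KO cells at 10 min, 0.34 ± 0.13 (0.037), was not called by DESeq2 (0.081), nor by edgeR without WT replicate 1 (0.059) or 3 (0.23) or *Tet2*-KO replicate 2 (0.12) or 3 (0.33) of that time.

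*mt-Tp* took 13.01, 15.0 and 13.5 RPM in WT and 18.01, 22.2 and 23.04 in *Tet2*-KO cells at 10 min, 16.1, 16.2 and 14.1 against 16.5, 16.5 and 13.98 at 20 min, and 11.3, 12.3 and 13.1 against 13.5, 14.04 and 12.3 at 40 min. Only the 10 min libraries were apart, with a log2 fold change of 0.60 ± 0.10 (SE; edgeR adjusted p = 1.2e-05).

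*mt-Tw* took 16.5, 15.3 and 14.8 RPM in WT and 13.1, 20.2 and 16.5 in *Tet2*-KO cells at 10 min, 14.2, 13.999 and 11.3 against 10.7, 11.9 and 12.9 at 20 min, and 10.1, 11.9 and 9.81 against 8.33, 10.8 and 8.87 at 40 min. The genotypes overlapped at every time, and the averaged difference of -0.08 ± 0.08 (SE) did not pass (edgeR adjusted p = 0.38). *mt-Ti* had 29, 37 and 50 reads in WT and 35, 19 and 17 in *Tet2*-KO cells at 10 min, 14, 10 and 34 against 31, 13 and 24 at 20 min, and 8, 16 and 14 against 17, 15 and 21 at 40 min. *mt-Tm*, for methionine, the tested member with the lowest averaged log2 fold change of the share (-0.54 ± 0.36, 0.21), had 31, 10 and 31 reads against 17, 8 and 7 at 10 min, 9, 7 and 6 against 5, 4 and 6 at 20 min, and 13, 7 and 2 against 1, 8 and 9 at 40 min. Neither of these tRNAs passed between genotypes on the averaged share.

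With EU time, RNA per ERCC read rose for almost every gene in the cells. From 10 to 40 min edgeR called 21 of 23 members higher in WT, beside 96.7% of all genes, and 22 in *Tet2*-KO cells, beside 94.7%; with TMM scaling 5 were higher and 8 lower in WT and 3 higher and 9 lower in *Tet2*-KO cells. The median log2 fold change of the members was 2.07 in WT and 1.65 in *Tet2*-KO cells, below the medians of all genes, 2.26 and 1.996. The mitochondrial sum grew 4.66-fold in WT and 4.13-fold in *Tet2*-KO cells, beside 5.32-fold and 4.17-fold for nuclear protein-coding genes.

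As a share of gene reads, members moved in both directions with EU time. In WT 10 of 23 were lower at 40 than at 10 min (29.5% of all genes) and 4 higher (16.1%), and in *Tet2*-KO cells 10 were lower (20.0%) and 2 higher (16.5%). In WT the 4 that rose were *mt-Rnr1*, *mt-Co1*, *mt-Nd4* and *mt-Ty*, and in *Tet2*-KO cells the 2 were both rRNAs. *mt-Rnr1* rose by 0.22 ± 0.03 (SE; edgeR adjusted p = 1.2e-07) in WT and by 0.52 ± 0.03 (6.4e-16) in *Tet2*-KO cells on the log2 scale of the share.

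*mt-Nd6* had the largest fall of share among the well-read genes in WT, -0.71 ± 0.04 (SE; edgeR adjusted p = 1.1e-16), and fell by 0.40 in *Tet2*-KO cells (9.6e-11). *mt-Nd2* fell by 0.62 in WT (5.8e-16) and by 0.39 in *Tet2*-KO cells (6.9e-11). *mt-Nd5* fell by 0.33 in WT (4.8e-15), and its change of -0.03 in *Tet2*-KO cells did not pass (0.31). Of the tRNAs, *mt-Tw* fell by 0.55 in WT (0.00079) and by 0.82 in *Tet2*-KO cells (8.9e-06), while *mt-Ty* rose by 0.64 in WT (0.00014) and fell by 0.47 in *Tet2*-KO cells (0.0062); the latter call was lost without *Tet2*-KO replicate 3 at 10 min, at -0.31 (0.093), and with DESeq2, at -0.44 (0.070). For *mt-Rnr2* the changes of -0.17 in WT (0.024) and 0.20 in *Tet2*-KO cells (0.013) were each lost when 1 of several libraries was left out: in WT without replicate 1 (0.051) or 3 (0.11) at 10 min or replicate 2 (0.070) or 3 (0.13) at 40 min, and in *Tet2*-KO cells without replicate 2 (0.10) or 3 (0.091) at 10 min or replicate 3 at 40 min (0.066). The WT change was also lost with TMM scaling, at -0.071 (0.35), and with DESeq2, at -0.074 (0.56).

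**Figure D4:**
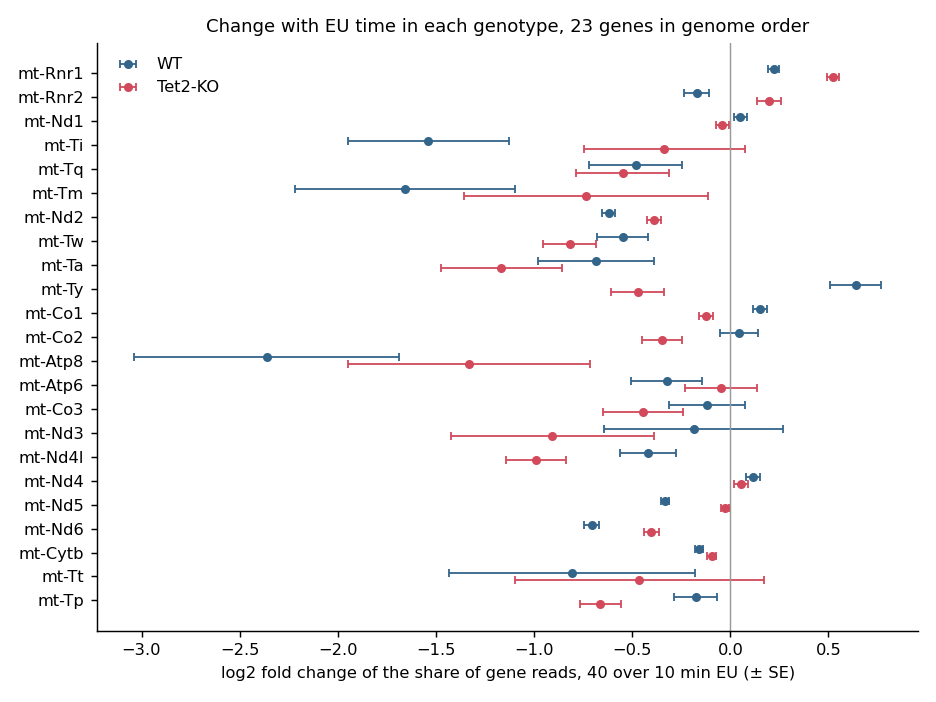
Log2 fold change of each member's share of gene reads from 10 to 40 min of EU, with its SE, for the 23 tested members in genome order, WT in blue and *Tet2*-KO in red. *mt-Nd6* and *mt-Nd2* lie below 0 in both genotypes, *mt-Rnr1* above 0 in both, and *mt-Ty* on opposite sides, at 0.64 in WT and -0.47 in *Tet2*-KO cells.

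The difference between genotypes itself changed with EU time. Tested as an interaction, the change of the log2 fold change of *Tet2*-KO over WT from 10 to 40 min, per ERCC read, was called negative for 8 of 23 members, beside 19.3% of all genes, with a median of -0.40 over the members and -0.29 over all genes; with TMM scaling 5 were negative and 5 positive. These were *mt-Ty*, *mt-Nd4l*, *mt-Tp*, *mt-Co2*, *mt-Tw*, *mt-Co1*, *mt-Nd1* and *mt-Nd4*. On the share of gene reads 3 members were called negative, beside 3.36% of all genes, and 5 positive, beside 5.89%. The 3 were *mt-Ty* at -1.11 ± 0.19 (SE; edgeR adjusted p = 0.00014), *mt-Tp* at -0.48 ± 0.15 (0.039) and *mt-Co1* at -0.28 ± 0.05 (0.00034). The 5 were *mt-Rnr1* at 0.30, *mt-Rnr2* at 0.37, *mt-Nd2* at 0.23, *mt-Nd5* at 0.30 and *mt-Nd6* at 0.30.

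Ratios between genes of 1 library do not depend on the ERCC reads or on the nuclear genes. They were formed after the values were seen and are given as a description. Reads on *mt-Ty* were 1.59, 1.78 and 1.26% of those on *mt-Nd6*, of the same strand, in WT at 10 min, 3.11, 2.99 and 2.33% at 20 min and 4.04, 4.14 and 3.59% at 40 min. In *Tet2*-KO cells they were 1.91, 2.46 and 2.67%, then 2.36, 2.86 and 2.92%, then 2.03, 2.08 and 2.64%. The ratio thus increased with time in WT, with no overlap between 10 and 40 min, and the *Tet2*-KO libraries of 10 and 40 min overlapped.

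Reads on *mt-Co1* per read on *mt-Nd5*, both of the plus strand, were 50.6 ± 1.95% (SD, n = 3) in WT at 10 min, 60.9 ± 4.61% at 20 min and 70.8 ± 0.853% at 40 min, and 65.1 ± 4.01, 62.3 ± 2.47 and 60.8 ± 2.14% in *Tet2*-KO cells. Again the ratio grew in WT alone among these libraries. Reads on *mt-Rnr1* per read on *mt-Rnr2* grew in both, from 50.8 ± 1.36 to 66.8 ± 2.18% in WT and from 52.6 ± 3.87 to 65.5 ± 0.298% in *Tet2*-KO cells. Reads on *mt-Nd6* per read on *mt-Nd5* fell in both, from 75.3 ± 1.01 to 58.1 ± 0.619% in WT and from 77.6 ± 6.48 to 59.8 ± 0.338% in *Tet2*-KO cells; at 20 min they were 65.3 ± 5.26% and 58.7 ± 2.99%.

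**Figure D5:**
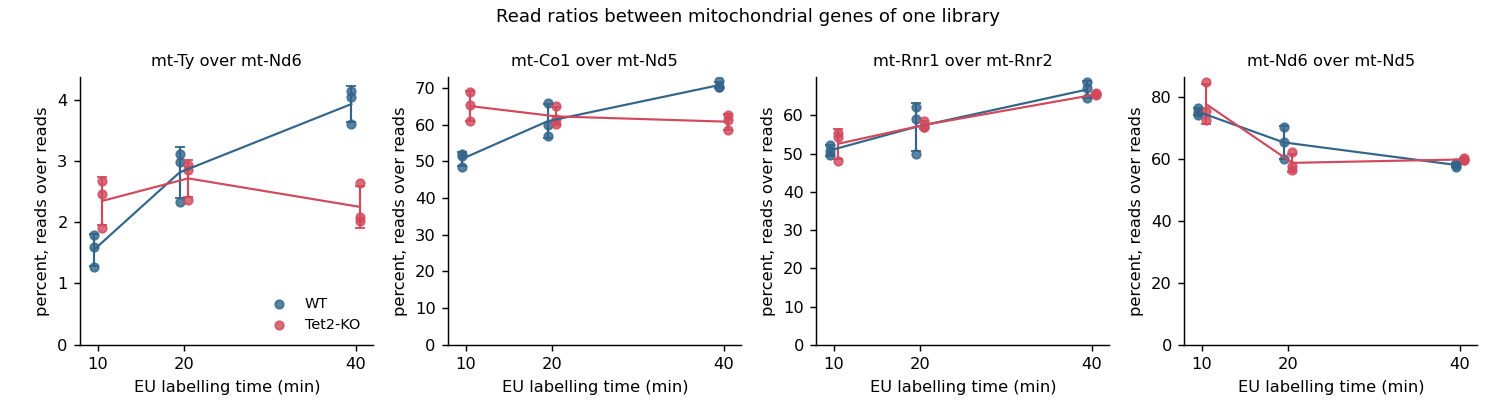
Reads on 1 mitochondrial gene as a percent of reads on another in the same library against EU time in min, for 4 pairs, with points for libraries, lines through the means and bars of 1 SD (n = 3), WT in blue and *Tet2*-KO in red. *mt-Ty* over *mt-Nd6* and *mt-Co1* over *mt-Nd5* climb in WT and not in *Tet2*-KO libraries, and the other 2 pairs move alike in both genotypes.

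The nuclear genes that make, cut, modify and maintain mitochondrial RNA and DNA were read from a list of 56, of which 55 were tested. Per ERCC read, averaged over the EU times, 53 were called higher in *Tet2*-KO cells, beside 80.5% of all genes, with a median log2 fold change of 0.72 beside 0.70 over all genes (16 higher and 12 lower with TMM scaling). As a share of gene reads 12 were higher, beside 24.6% of all genes, and 17 lower, beside 32.0%, with a median of -0.02 beside -0.04. Of 10 transcription genes 3 were higher and 3 lower on the share, of 20 tested genes for RNA processing and decay 4 and 5, of 13 for RNA modification 1 and 4, and of 12 for DNA maintenance and nucleotides 4 and 5.

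*Rrm2b*, a subunit of the ribonucleotide reductase that supplies mitochondrial DNA synthesis in resting cells, was the highest, at 1.42 ± 0.05 on the log2 scale of the share (SE; edgeR adjusted p = 1.7e-21), followed by *Mterf2*, of the mitochondrial termination factor family, at 0.32 ± 0.06 (2.6e-05). *Dguok*, the mitochondrial deoxyguanosine kinase, was the lowest at -0.74 ± 0.04 (4.4e-16), followed by *Top1mt*, the mitochondrial topoisomerase, at -0.52 ± 0.11 (0.00019). *Polrmt*, at 0.04 ± 0.08 (0.70), and *Tfam*, at 0.04 ± 0.04 (0.43), did not pass.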

How the data were processed

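EU-labelled RNA of 18 mES cell libraries was measured. The authors trimmed reads with Trimmomatic (0.39), aligned them with HISAT2 (2.2.1) to mm10 (GENCODE M19) and ERCC sequences and counted reads with HTSeq (0.12.4); the deposited values are raw counts per gene. HTSeq's rows for reads on no gene (13.2 to 16.9% of reads), on several genes (2.32 to 2.50%) or not placed uniquely (5.24 to 5.99%) stayed out of all sums and tests. How strands and overlaps were counted was read from the counts, since it is not given in the sources used here.

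Strand, length and sequence came from GENCODE M21, which held 54409 of the 54446 gene identifiers. Shared sequence was sought with blastn (2.17.0) against annotated transcripts only.

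Counts were tested with edgeR (4.0.16), quasi-likelihood, 6 group means over 18 libraries, filterByExpr (19910 genes kept), Benjamini-Hochberg over all genes, with library size from ERCC reads or from gene reads. Sums, slopes and ratios got no p. DESeq2 (1.42.0), TMM and other alternatives were run. On simulated data with a small part of the genes changed, all of them well read and with exact ERCC totals, changed genes were recovered by both tools. That setting does not cover the shift of most genes per ERCC read or the members with few reads. Deviations of same-numbered libraries correlated between -0.17 and 0.15, with 5 of 45 pairs over 0.1, so replicate numbers were not taken to pair libraries.

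Members and lists were chosen with earlier results of these data known. Values in every library are given for both rRNAs, *mt-Nd6*, the protein genes of highest and lowest level per kilobase, the 2 tRNAs of each strand with the most reads and the tested members of highest and lowest averaged change of share; from the machinery list the 2 highest and 2 lowest called genes are named. Other genes named with values, *mt-Nd5*, *mt-Nd2*, *mt-Co1*, *Polrmt* and *Tfam* among them, were chosen after their values were seen.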

Additional observations from a re-analysis of the deposited data

Results flagged for a closer look

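For 8 members the difference between genotypes itself differed between 10 and 40 min of EU in the interaction test per ERCC read, with *Tet2*-KO over WT smaller at 40 min. The change on the log2 scale was -1.45 ± 0.15 (SE) for *mt-Ty* (edgeR adjusted p = 1.9e-16), -0.92 ± 0.24 for *mt-Nd4l* (0.0030), -0.83 ± 0.19 for *mt-Tp* (0.00080) and -0.74 ± 0.19 for *mt-Co2* (0.0029). It was -0.62 ± 0.20 for *mt-Tw* (0.018), -0.62 ± 0.12 for *mt-Co1* (4.9e-05), -0.44 ± 0.12 for *mt-Nd1* (0.0045) and -0.40 ± 0.12 for *mt-Nd4* (0.010). The median over all genes was -0.29. The call for *mt-Tw* was lost without WT replicate 3 at 10 min (0.063), WT replicate 2 at 40 min (0.12), *Tet2*-KO replicate 2 (0.062) or 3 (0.054) at 10 min or *Tet2*-KO replicate 3 at 40 min (0.051). It was also lost with TMM scaling, at -0.33 (0.32), and with DESeq2, at -0.34 (0.28). With each of these scalings 5 members in all were called negative, so further calls among the 8 were lost. The calls for *mt-Nd4l*, *mt-Co2*, *mt-Nd1* and *mt-Nd4* were not followed singly under the alternatives. Each group had 3 libraries, too few for a test of single libraries that stand apart.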

How the results depend on the processing

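Directions per ERCC read followed the scaling: the median of all genes for *Tet2*-KO over WT was 0.70 by ERCC reads and 0.00 by TMM. With TMM on the per-ERCC comparisons, members called higher and lower were 3 and 6 (10 min), 0 and 6 (20 min), 0 and 9 (40 min), 1 and 10 averaged, 5 and 8 for EU time in WT, 3 and 9 in *Tet2*-KO cells, 5 and 5 for the interaction, and 16 and 12 of the machinery list; with DESeq2 size factors on the genes they were 1 and 6, 0 and 5, 0 and 8, 1 and 9, 5 and 8, 2 and 8, 3 and 5, and 13 and 13. Each count of 0 was also 0 at an unadjusted p under 0.05 with both tools. The share of all genes called with these 2 scalings was not worked out, so whether these counts are particular to the members was not tested. By these 2 scalings the averaged log2 fold change turned to -0.20 and -0.20 for *mt-Rnr1*, -0.21 and -0.22 for *mt-Rnr2*, -0.35 and -0.36 for *mt-Nd2*, -0.045 and -0.050 for *mt-Co1*, -0.10 and -0.11 for *mt-Nd5*, -0.13 and -0.13 for *mt-Nd6*, -0.23 and -0.24 for *mt-Cytb*, -0.042 and -0.046 for *mt-Tw*, and -0.21 and -0.21 for *mt-Ty*. With gene-read totals, chosen after seeing the data, the interaction gave 5 and 3. Share calls higher at 10 min were 1 with DESeq2 and 4 with no filter, and 1 to 3 with 1 library left out (1 without WT replicate 1 or 3 at 10 min). Averaged, those higher were 1 to 2 (2 without WT replicate 3 at 40 min), and for EU time in *Tet2*-KO cells 1 to 2 (1 without *Tet2*-KO replicate 2 at 10 min or 3 at 40 min). The share ratio at 10 min moved to 0.850 over protein genes, 0.852 without rRNAs and 0.809 over nuclear protein-coding reads; leaving out the copied members, chosen after seeing the data, kept it at 0.818. The slope ratio was 1.00 over 10 and 20 min and 1.81 over 20 and 40 min. Leaving out 1 library gave ratios of the summed level of 1.61 to 1.74, 1.22 to 1.28 and 1.42 to 1.54 in order of EU time. Calls were followed singly only for *mt-Rnr1*, *mt-Rnr2*, *mt-Nd2*, *mt-Co1*, *mt-Nd5*, *mt-Nd6*, *mt-Cytb*, *mt-Tw*, *mt-Ty* and *mt-Tp*. Per ERCC read this covered the averaged difference and the interaction, and on the share all comparisons but the interaction. Of their values under all alternatives, 1404 kept direction and call, 32 lost the call and 18, those given here, reversed. The cause of these changes was not tested. With the replicate number as a block, 20 members were higher averaged per ERCC read and 12 lower on the share, and no count moved by over 1.5 times; the numbers did not pair the libraries. ERCC-based scalings were not run for the share, being another quantity. Depth limits *mt-Atp8*, *mt-Nd3*, *mt-Ti*, *mt-Tm* and *mt-Tt*, with under 410 reads each over all libraries.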
